A study of Homo sapiens with 38 samples.

Results

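TOLEDO is an established human line of diffuse large B-cell lymphoma (DLBCL), a tumour of mature B cells. Its libraries were taken by the cell line named in their titles, which gave 7 of the 37 libraries in the deposited count table (38 samples are listed). The tested libraries were 1 of pracinostat and 1 of vorinostat after 6 h, and 1 of each drug after 14 days. They were set against 1 library of the solvent DMSO at 6 h and, at 14 days, a pair of DMSO libraries titled DMSOP and DMSOV, 3 in all. The labels give no dose, no passage and no sign of whether libraries came from separate cultures, so p-values measure the spread between these libraries, which may in part be technical. Each drug had 1 library per time. In the tests of drug against DMSO the spread therefore also holds differences between the drugs. Over both times it holds changes of the effect with time as well. Line identity had been checked by the submitters with short tandem repeat profiling, and all libraries are of 1 line. For comparison, 28 libraries of the DLBCL lines OCILY1, PFEIFFER, SUDHL4 and WSUDLCL2 had the same 7 combinations of treatment and time. The question, after the series title, was how the transcript response to histone deacetylase inhibitors looks in TOLEDO and where it differs from that of other lines.

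Histone deacetylases (HDACs) take acetyl groups off lysines of histones and of many other proteins, and acetylated histones go with open, transcribed chromatin. Pracinostat and vorinostat are both hydroxamic acids that bind the zinc ion in the enzyme's pocket. Vorinostat is a linear molecule with an anilide cap, and pracinostat carries a benzimidazole cap on an acrylic hydroxamate. In B-cell lymphoma such drugs are known for raising the cell cycle inhibitor p21, encoded by CDKN1A, for lowering growth and replication genes, and for acetylating the germinal centre repressor BCL6. The germinal centre is the site where B cells divide fast and alter their antibody genes, and many DLBCLs keep its programme.

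The 7 TOLEDO libraries held 5870845 to 7536369 counts, and a count of 0 allows up to 3 counts, or 0.398 to 0.511 CPM (counts scaled to a fixed library size), counting error only. All 10 B-cell markers were detected, with a summed level of 2081 to 4358 CPM in the drug libraries, against 2752 to 3013 CPM in DMSO. Of 8 markers of T and NK cells 5 were in the table and summed to 1.84 to 2.57 CPM with drug, against 1.05 to 1.60 CPM in DMSO, and 3 of 8 myeloid markers summed to 0.415 to 1.04 CPM, against 0.133 to 0.628 CPM. Of 5 epithelial markers 3 were in the table, 2 of them at 0 in all 7 libraries, with a sum of 0 to 0.307 CPM with drug, against 0 in DMSO. None of 3 erythroid markers was in the table. Of 5 fibroblast and endothelial markers 3 were in the table and summed to 3.46 to 36.1 CPM with drug, against 14.6 to 20.7 CPM in DMSO, with COL1A1 at 2.25 to 17.7 CPM in the drug libraries, against 8.22 to 17.3 CPM in DMSO. A search for RNA of the other lines used 12 genes at 0 counts in TOLEDO DMSO and at a mean of 5 CPM or more in DMSO of each other line: in the TOLEDO drug libraries they reached at most 0.550 CPM. Counts on mitochondrially encoded genes made up 14.7% with pracinostat and 17.1% with vorinostat at 14 days, against 8.02% in DMSOP and 9.52% in DMSOV, and 6.93% and 8.07% with these drugs at 6 h, against 7.40% in DMSO. The 10 highest genes took 23.8% of the counts of the 14 day vorinostat library, more than in the other 6 (10.4% to 18.4%).

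**Figure D1:**
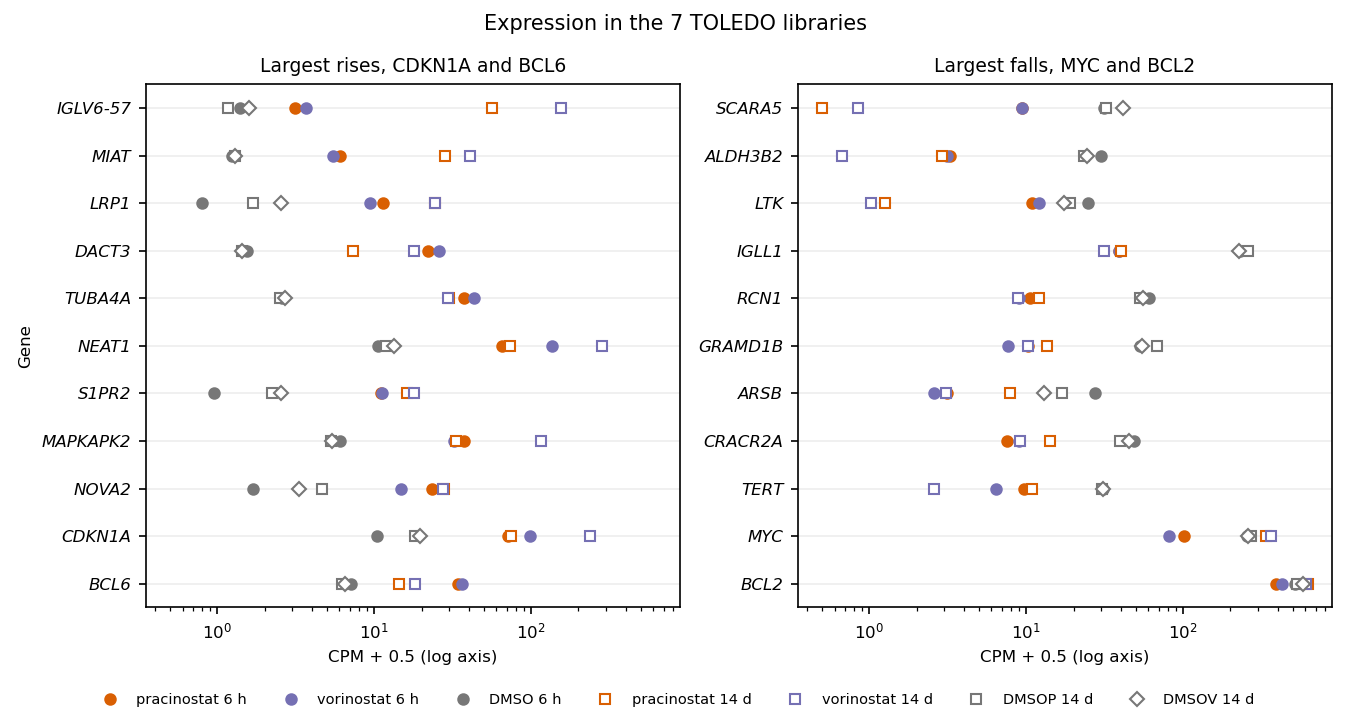
Levels of named genes in the 7 TOLEDO libraries, on a log axis of CPM + 0.5, with 1 point per library (drug libraries in colour, DMSO in grey, 6 h filled, 14 days open). Drug and DMSO points lie apart for all genes shown except MYC and BCL2. Most genes were chosen as the largest called changes, which makes such a separation likely.

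Taken over both times, drug against DMSO with time as block, the largest rises in TOLEDO were of genes with low levels in DMSO, such as TUBA4A and S1PR2, and the largest falls included the surrogate light chain IGLL1 and the telomerase gene TERT. Of 13918 genes tested, 1424 rose and 1351 fell, 19.9% in all, called by edgeR's quasi-likelihood test at a Benjamini-Hochberg adjusted p under 0.05. The median log2 change of all tested genes was 0.04. Changes of at least 2-fold were mostly rises, 1085 (7.80%) against 483 falls (3.47%). Among the calls 2732 (19.6% of genes tested) had 1 sign in all 4 drug libraries. The calls came from these same libraries, so this sign count is a description. In bulk RNA, fewer cells with a transcript and less transcript per cell cannot be told apart.

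TUBA4A (ENSG00000127824, chromosome 2, 219249711 to 219278170 of GRCh38), which encodes an alpha-tubulin, had 36.7 CPM with pracinostat and 42.8 CPM with vorinostat at 6 h, against 2.09 CPM with DMSO, and 29.3 and 29.1 CPM with the same drugs at 14 days, against 2.00 and 2.20 CPM in DMSOP and DMSOV. All 4 drug libraries stood far above the 3 DMSO libraries, at a log2 fold change of 3.96 (SE 0.25, adjusted p = 6.46e-05). S1PR2 (ENSG00000267534, chromosome 19, 10221433 to 10231331), a receptor for sphingosine 1-phosphate that confines B cells to the germinal centre, had 10.6 CPM with pracinostat and 10.6 CPM with vorinostat at 6 h, against 0.448 CPM with DMSO, and 15.7 and 17.5 CPM with the same drugs at 14 days, against 1.73 and 2.04 CPM in DMSOP and DMSOV. The groups did not overlap and the log2 fold change was 3.46 (SE 0.34, adjusted p = 9.62e-04). Its 6 h DMSO value lay near the floor of that library, 0.446 CPM, so the size of its 6 h rise is uncertain. CDKN1A (ENSG00000124762, chromosome 6, 36676460 to 36687339) had 70.2 CPM with pracinostat and 98.4 CPM with vorinostat at 6 h, against 9.86 CPM with DMSO, and 73.8 and 235 CPM with the same drugs at 14 days, against 17.7 and 19.2 CPM in DMSOP and DMSOV. Its drug values lay above all DMSO values, the 14 day vorinostat library highest, with a log2 fold change of 3.08 (SE 0.37, adjusted p = 0.00200). BCL6 (ENSG00000113916, chromosome 3, 187721377 to 187745727), the zinc finger repressor that sets up the germinal centre state, had 33.8 CPM with pracinostat and 35.5 CPM with vorinostat at 6 h, against 6.57 CPM with DMSO, and 13.9 and 17.7 CPM with the same drugs at 14 days, against 5.72 and 5.97 CPM in DMSOP and DMSOV. It rose without overlap, more at 6 h than at 14 days in these values, with a log2 fold change of 1.81 (SE 0.27, adjusted p = 0.00380).

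The promoters of these 4 genes are shown because all 4 rose in every drug library and because GC-rich elements near the CDKN1A start are known for its answer to HDAC inhibitors. Each runs from 250 bases before to 50 after the start, 5′ to 3′ on the gene's strand, from RefSeq on GRCh38.p14. Capitals mark GC boxes (GGGCGG, or CCGCCC on the other strand, overlapping matches counted), and no CCAAT was found on either strand in any of the 4. They lie at chr6:36678464-36678763 on the plus strand for CDKN1A, and on the minus strand at chr3:187745419-187745718 for BCL6, chr19:10231282-10231581 for S1PR2 and chr2:219253869-219254168 for TUBA4A.
CDKN1A: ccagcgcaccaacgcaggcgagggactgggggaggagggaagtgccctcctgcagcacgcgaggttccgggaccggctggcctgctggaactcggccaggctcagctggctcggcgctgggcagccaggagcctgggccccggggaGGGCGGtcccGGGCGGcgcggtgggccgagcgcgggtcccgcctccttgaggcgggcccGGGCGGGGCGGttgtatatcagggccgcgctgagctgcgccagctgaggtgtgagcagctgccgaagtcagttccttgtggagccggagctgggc
BCL6: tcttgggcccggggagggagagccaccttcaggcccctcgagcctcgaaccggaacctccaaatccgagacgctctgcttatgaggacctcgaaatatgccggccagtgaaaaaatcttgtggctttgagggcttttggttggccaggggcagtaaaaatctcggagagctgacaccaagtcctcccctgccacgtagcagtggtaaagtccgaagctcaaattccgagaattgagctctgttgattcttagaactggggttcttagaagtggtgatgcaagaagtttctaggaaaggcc
S1PR2: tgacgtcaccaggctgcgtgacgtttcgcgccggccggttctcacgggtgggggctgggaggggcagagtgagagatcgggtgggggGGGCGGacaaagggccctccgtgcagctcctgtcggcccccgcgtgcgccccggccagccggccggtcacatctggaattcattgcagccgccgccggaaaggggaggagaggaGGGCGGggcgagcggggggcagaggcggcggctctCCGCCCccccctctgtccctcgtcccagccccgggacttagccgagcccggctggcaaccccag
TUBA4A: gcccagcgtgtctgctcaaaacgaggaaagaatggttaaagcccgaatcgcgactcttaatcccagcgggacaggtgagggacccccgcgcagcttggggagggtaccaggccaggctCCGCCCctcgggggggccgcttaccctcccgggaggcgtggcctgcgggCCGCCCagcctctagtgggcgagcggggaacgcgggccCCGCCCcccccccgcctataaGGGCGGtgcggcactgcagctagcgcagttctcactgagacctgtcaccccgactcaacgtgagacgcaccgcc
CDKN1A held 4 GC boxes, starting at -104, -94, -45 and -40 from the start site, the last pair overlapping. TUBA4A also held 4, S1PR2 held 3, and BCL6 held 0. Of all 27305 promoters of that length, 44.6% held a GC box and 35.7% a CCAAT. Of the tested genes with a promoter (9561 of 13918) 70.1% held a GC box, near the 72.3% of the 953 that rose and the 69.4% of the 1095 that fell. A match describes the letters in this window and is not a binding site.

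The largest rise was that of IGLV6-57, a variable segment of the lambda light chain, which had 2.61 CPM with pracinostat and 3.18 CPM with vorinostat at 6 h, against 0.896 CPM with DMSO, and 55.9 and 154 CPM with the same drugs at 14 days, against 0.665 and 1.10 CPM in DMSOP and DMSOV. Its log2 fold change was 5.97 (SE 0.82, adjusted p = 0.00313), with 14 day drug values far above those of 6 h. Reads of immunoglobulin segments can be split between near-identical copies, so this value is uncertain. MIAT, a long noncoding RNA, had 5.53 CPM with pracinostat and 4.98 CPM with vorinostat at 6 h, against 0.747 CPM with DMSO, and 27.9 and 40.3 CPM with the same drugs at 14 days, against 0.798 and 0.785 CPM in DMSOP and DMSOV, a log2 fold change of 4.72 (SE 0.48, adjusted p = 0.00104). LRP1, a large receptor that takes up lipoproteins and proteases, had 8.84 to 23.7 CPM in the drug libraries, against 0.299 to 2.04 CPM in DMSO, with a log2 fold change of 4.09 (SE 0.34, adjusted p = 4.05e-04). Its lowest DMSO value lay below the floor. DACT3, an inhibitor of Wnt signalling, had 6.79 to 25.3 CPM in the drug libraries, against 0.932 to 1.05 CPM in DMSO. NEAT1, the noncoding RNA that builds nuclear paraspeckles, had 64.4 to 282 CPM in the drug libraries, against 10.0 to 12.9 CPM in DMSO. MAPKAPK2, a kinase downstream of p38, had 31.8 to 114 CPM in the drug libraries, against 4.79 to 5.53 CPM in DMSO, and NOVA2, a neuronal splicing factor, rose by 3.23 on the log2 scale. None of these 7 genes had overlapping groups, and each stayed called when any 1 of the 7 libraries was left out. They were chosen as called genes with 1 sign in all 4 drug libraries, so this separation and the kept calls are a description. The share of all tested genes without overlap was not counted.

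Genes that fell were led by SCARA5, a scavenger receptor for ferritin, with 8.91 CPM with pracinostat and 8.84 CPM with vorinostat at 6 h, against 30.6 CPM with DMSO, and 0 and 0.346 CPM with the same drugs at 14 days, against 31.9 and 41.1 CPM in DMSOP and DMSOV, a log2 fold change of -3.96 (SE 0.82, adjusted p = 0.0111). It was lowest at 14 days, at or below the floor in both drug libraries. ALDH3B2, an aldehyde dehydrogenase, had 2.77 CPM with pracinostat and 2.63 CPM with vorinostat at 6 h, against 29.6 CPM with DMSO, and 2.42 and 0.173 CPM with the same drugs at 14 days, against 22.8 and 23.7 CPM in DMSOP and DMSOV. LTK, a receptor tyrosine kinase, had 0.519 to 11.5 CPM in the drug libraries, against 17.0 to 24.3 CPM in DMSO. IGLL1 (ENSG00000128322, chromosome 22, 23573125 to 23580308), the surrogate light chain of early B cells, which shares sequence with other lambda genes, had 38.7 CPM with pracinostat and 38.3 CPM with vorinostat at 6 h, against 231 CPM with DMSO, and 39.7 and 31.0 CPM with the same drugs at 14 days, against 257 and 228 CPM in DMSOP and DMSOV. Its 4 drug values lay close together, about equally far below DMSO at both times, with a log2 fold change of -2.70 (SE 0.17, adjusted p = 6.46e-05). TERT, the catalytic subunit of telomerase, had 9.22 CPM with pracinostat and 5.94 CPM with vorinostat at 6 h, against 30.2 CPM with DMSO, and 10.4 and 2.08 CPM with the same drugs at 14 days, against 29.7 and 30.5 CPM in DMSOP and DMSOV, a log2 fold change of -2.14 (SE 0.39, adjusted p = 0.00776). GRAMD1B, which carries cholesterol from the plasma membrane to the endoplasmic reticulum, had 7.19 to 13.0 CPM in the drug libraries, against 52.3 to 67.3 CPM in DMSO. RCN1, a calcium-binding protein of the secretory pathway, had a log2 fold change of -2.54, ARSB, a lysosomal sulfatase, one of -2.34, and CRACR2A, a regulator of store-operated calcium entry, one of -2.20. The groups of IGLL1, TERT, GRAMD1B, RCN1, ARSB and CRACR2A did not overlap. These genes too were chosen by their calls and signs.

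The number of called genes depended on the libraries. Without DMSOP it was 1112 and without DMSOV 1016, and without the pracinostat or the vorinostat library of 6 h it was 1406 or 1501. With pracinostat alone against DMSO 1400 genes were called, and with vorinostat alone 1002.

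Genes of cell division and DNA replication fell in part. Of 25 genes of G2/M and mitosis 14 fell over both times and 0 rose, of 25 genes of G1/S and replication 12 fell and 0 rose, and of 22 genes of homologous recombination and the Fanconi pathway 5 fell and 0 rose, against 9.71% of all genes that fell. The medians were -1.25, -0.96 and -0.87, against 0.04 for all genes. At 14 days 20, 20 and 13 members of these lists fell, and at 6 h 0, 2 and 0. The direct test of the effect at 14 days minus that at 6 h called 0 of 25, 0 of 25 and 0 of 22, against 1.26% of all genes, so these counts do not show a difference between the times. The whole-list median of G2/M was -0.59 with pracinostat and -0.67 with vorinostat at 6 h, and -1.06 and -2.75 at 14 days, each against the mean DMSO of its time. All 25 G2/M genes were lower with vorinostat than with pracinostat at 14 days. PLK1, a mitotic kinase, had 57.9 CPM with pracinostat and 48.9 CPM with vorinostat at 6 h, against 137 CPM with DMSO, and 74.0 and 17.0 CPM with the same drugs at 14 days, against 179 and 144 CPM in DMSOP and DMSOV, a log2 fold change of -1.64 (SE 0.38, adjusted p = 0.0172). TTK, the spindle checkpoint kinase, had 8.31 to 37.97 CPM in the drug libraries, against 77.3 to 98.0 CPM in DMSO, and its log2 fold change was -1.68 (SE 0.38, adjusted p = 0.0165). TYMS, which makes thymidylate for DNA, fell by 1.63, the helicase subunit MCM7 by 1.34, the repair factor BRCA1 by 1.10 and the checkpoint kinase CHEK1 by 1.09 on the log2 scale. Called members of G2/M numbered 14 with pracinostat alone, 1 with vorinostat alone, 9 with library totals and 4 with the spread taken over 5 lines. Those of G1/S numbered 8, 6, 7 and 6 under these settings, and those of recombination 2, 1, 2 and 4. Called members of G2/M numbered 3 without the DMSOP library, 3 without the DMSOV library and 8 without the 6 h vorinostat library, of G1/S 4 without the DMSOP library, 4 without the DMSOV library, 19 without the 6 h DMSO library, 4 without the 6 h vorinostat library and 5 without the 6 h pracinostat library, and of recombination 1 without the DMSOP library, 0 without the DMSOV library, 14 without the 6 h DMSO library, 3 without the 6 h vorinostat library and 2 without the 6 h pracinostat library. The call was lost, by adjusted p, for TTK 0.0507 without the DMSOV library, for PLK1 0.0531 without the DMSOP library, for BRCA1 0.0519 without the DMSOP library and 0.0674 without the DMSOV library, for CHEK1 0.100 without the DMSOP library, 0.118 without the DMSOV library, 0.0564 without the 6 h vorinostat library, 0.0649 without the 6 h pracinostat library and 0.0740 without the 14 day pracinostat library.

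**Figure D2:**
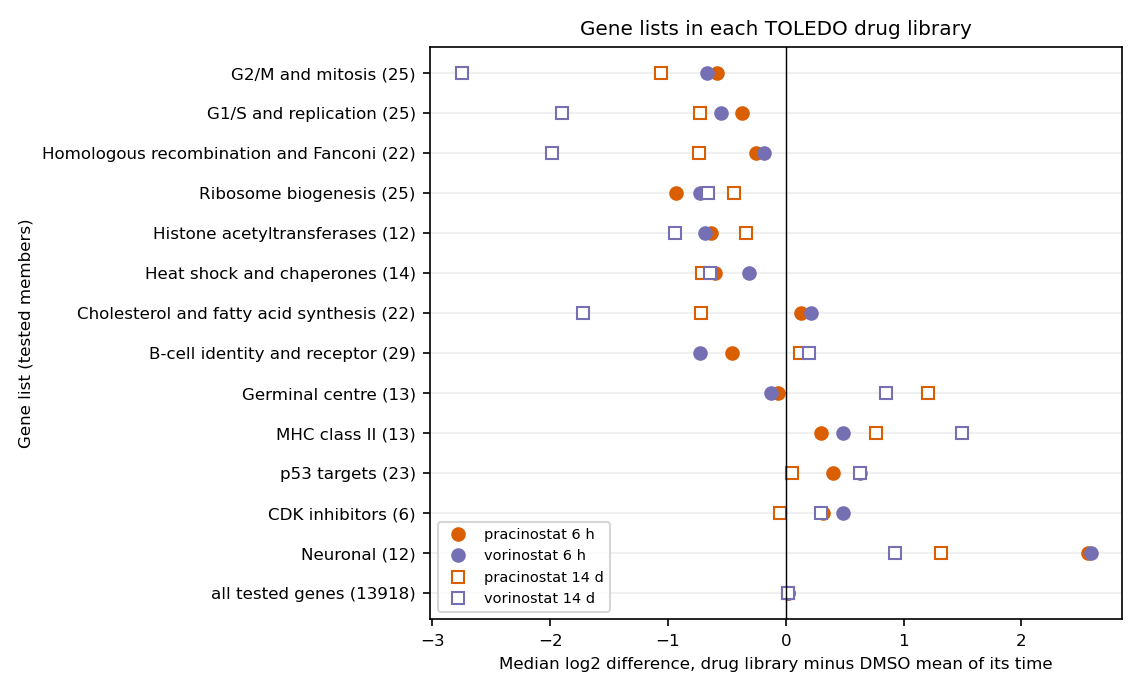
Median log2 difference of each gene list, 1 point per TOLEDO drug library minus the mean DMSO of its time, with tested members in brackets. G2/M genes stood at -2.75 with vorinostat at 14 days and at -1.06 with pracinostat, and the median of all tested genes lay near 0 in each library.

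Cell cycle inhibitors and p53 targets rose in part. Of 7 inhibitors of cyclin-dependent kinases 6 were tested and 2 rose, CDKN1A and CDKN2B, against 10.2% of all genes that rose. CDKN2B was low in DMSO and could pass the filter on low counts through its drug libraries alone, so nothing is read from that share. CDKN2B, which encodes p15, had 2.25 to 7.19 CPM in the drug libraries, against 0.471 to 1.46 CPM in DMSO, and its adjusted p was 0.0806 without the DMSOV library, 0.115 without the 6 h DMSO library, 0.0617 without the 6 h vorinostat library and 0.0549 without the 6 h pracinostat library. Of 23 tested p53 targets 9 rose and 1 fell, with a median of 0.45, beside 10.2% of all genes that rose and 9.71% that fell. TP53INP1, a stress factor of autophagy and cell death, had 42.4 CPM with pracinostat and 47.8 CPM with vorinostat at 6 h, against 7.17 CPM with DMSO, and 49.1 and 95.9 CPM with the same drugs at 14 days, against 10.6 and 8.48 CPM in DMSOP and DMSOV, a log2 fold change of 2.82 (SE 0.27, adjusted p = 9.03e-04). BTG2, an antiproliferative gene, rose by 2.31. AEN, an apoptosis-enhancing nuclease, was the p53 target that fell, by 1.05 on the log2 scale. Among 19 tested pro-apoptotic genes 4 rose and 1 fell, beside the same shares of all genes. BMF, a BH3-only protein that neutralises BCL2, had 64.2 to 139 CPM in the drug libraries, against 9.26 to 17.3 CPM in DMSO, and BBC3, which encodes PUMA, had 5.23 to 15.2 CPM in the drug libraries, against 1.195 to 3.19 CPM in DMSO. Their log2 fold changes were 2.61 (SE 0.33, adjusted p = 0.00265) and 2.10 (SE 0.36, adjusted p = 0.00621). BID, which links death receptors to mitochondria, fell by 1.27. Of 8 tested anti-apoptotic genes BIRC3 rose by 1.31 and BCL2L1, which encodes BCL-XL, fell by 0.90 on the log2 scale. With 1 risen and 1 fallen, this list lay near the shares of all genes. BCL2 itself had 389 CPM with pracinostat and 426 CPM with vorinostat at 6 h, against 519 CPM with DMSO, and 622 and 605 CPM with the same drugs at 14 days, against 534 and 581 CPM in DMSOP and DMSOV, and its groups overlapped at a log2 fold change of -0.06 (SE 0.18, adjusted p = 0.832). Called CDK inhibitors numbered 1 without the DMSOV library, 1 without the 6 h DMSO library, 1 without the 6 h vorinostat library and 1 without the 6 h pracinostat library, pro-apoptotic genes 3 without the DMSOV library, and anti-apoptotic genes 1 without the DMSOP library, 1 without the DMSOV library, 1 without the 6 h DMSO library, 1 without the 6 h vorinostat library and 1 without the 6 h pracinostat library. The adjusted p of AEN was 0.0775 without the 6 h DMSO library, and that of BCL2L1 0.0510 without the DMSOP library, 0.0515 without the DMSOV library, 0.146 without the 6 h DMSO library, 0.0622 without the 6 h vorinostat library and 0.0788 without the 6 h pracinostat library.

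Of 11 HDAC genes, which encode the drug targets, 10 were tested and 1 rose, a share near the 10.2% of all genes that rose. It was HDAC11, with 0.906 to 4.33 CPM in the drug libraries, against 0 to 0.314 CPM in DMSO, which is near the floor in DMSO. HDAC1 had a log2 fold change of 0.20 (SE 0.16, adjusted p = 0.372), HDAC2 one of -0.40 (SE 0.16, adjusted p = 0.0896) and HDAC3 one of 0.10 (SE 0.20, adjusted p = 0.750). Among the enzymes that add acetyl groups, 5 of 12 histone acetyltransferases fell and 0 rose, with a median of -0.57. Over all tested genes 9.71% fell. KAT6B had 13.5 CPM with pracinostat and 10.2 CPM with vorinostat at 6 h, against 49.3 CPM with DMSO, and 34.4 and 15.8 CPM with the same drugs at 14 days, against 53.5 and 57.3 CPM in DMSOP and DMSOV, a log2 fold change of -1.51 (SE 0.28, adjusted p = 0.00862), and KAT7, the catalytic subunit of HBO1 complexes, fell by 1.11. Of 25 genes of ribosome biogenesis 13 fell and 0 rose, 11 at 6 h and 9 at 14 days, with a whole-list median of -0.65. Of all tested genes 8.06% fell at 6 h and 9.58% at 14 days. UTP20, a processing factor of the small subunit, had 21.7 CPM with pracinostat and 22.1 CPM with vorinostat at 6 h, against 96.3 CPM with DMSO, and 26.3 and 10.4 CPM with the same drugs at 14 days, against 68.1 and 66.4 CPM in DMSOP and DMSOV, a log2 fold change of -1.98 (SE 0.26, adjusted p = 0.00283). TSR1, which matures the small subunit, fell by 1.34. Of 14 heat shock genes 5 fell and 0 rose, beside the same 9.71% of all genes that fell. HSPH1, a nucleotide exchange factor of HSP70, had 117 to 241 CPM in the drug libraries, against 381 to 508 CPM in DMSO and fell by 1.43, and the co-chaperone DNAJB1 fell by 1.09 on the log2 scale. Called acetyltransferases numbered 3 without the DMSOP library, 2 without the DMSOV library, 2 without the 6 h vorinostat library and 3 without the 6 h pracinostat library. Called ribosome genes numbered 6 without the DMSOP library, 6 without the DMSOV library and 7 without the 6 h pracinostat library, heat shock genes 2 without the DMSOP library, 2 without the DMSOV library and 3 without the 6 h pracinostat library, and HDACs 0 without the DMSOP library and 2 without the 14 day pracinostat library.

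Germinal centre genes and antigen presentation genes rose in part, and genes of B-cell identity and receptor signalling were called in both directions. Of 18 germinal centre genes 13 passed the filter on low counts, 6 rose and 1 fell. Over all tested genes 10.2% rose and 9.71% fell. A member low in DMSO could pass through its drug libraries alone, so nothing is read from the share that rose. Beside S1PR2 and BCL6, MYBL1, a MYB family factor of dividing germinal centre B cells, had 38.9 CPM with pracinostat and 44.6 CPM with vorinostat at 6 h, against 8.07 CPM with DMSO, and 26.0 and 11.9 CPM with the same drugs at 14 days, against 7.72 and 8.01 CPM in DMSOP and DMSOV, a log2 fold change of 1.70 (SE 0.34, adjusted p = 0.00967). MEF2C, a transcription factor of B-cell proliferation, had 29.3 to 38.2 CPM in the drug libraries, against 10.5 to 14.0 CPM in DMSO. MME, the surface protease CD10, was the member that fell, with 115 CPM with pracinostat and 121 CPM with vorinostat at 6 h, against 384 CPM with DMSO, and 203 and 135 CPM with the same drugs at 14 days, against 404 and 472 CPM in DMSOP and DMSOV, a log2 fold change of -1.51 (SE 0.19, adjusted p = 0.00269). Of 13 MHC class II genes 7 rose and 0 fell, 10 at 14 days and 0 at 6 h, where 12 of 13 values were positive. Of all tested genes 10.8% rose at 14 days and 7.29% at 6 h. The direct test of the change between the times called 0 of 13. HLA-DMA, which loads peptides on class II molecules, had 143 CPM with pracinostat and 167 CPM with vorinostat at 6 h, against 84.7 CPM with DMSO, and 169.8 and 473 CPM with the same drugs at 14 days, against 76.7 and 89.3 CPM in DMSOP and DMSOV, a log2 fold change of 1.51 (SE 0.35, adjusted p = 0.0165). HLA-DQB1, a class II chain, had 21.5 to 70.5 CPM in the drug libraries, against 12.7 to 19.7 CPM in DMSO, and HLA genes are polymorphic with near copies, which makes their counts uncertain. Of 29 genes of B-cell identity and receptor signalling 3 rose and 8 fell over both times, with a median of 0.01. At 6 h 2 rose and 12 fell, with a median of -0.56, and at 14 days 7 rose and 6 fell, with a median of 0.13. Of all tested genes 7.29% rose and 8.06% fell at 6 h, and 10.8% and 9.58% at 14 days. The direct test of the change between the times called 3 of 29, all with a higher effect at 14 days, beside 0.776% of all genes. Without the 6 h DMSO library 7 of these B-cell genes rose and 6 fell over both times. CR2, the complement receptor CD21, rose by 2.28 and POU2F2, which encodes OCT2, by 1.23. IKZF1 and IKZF3, the lymphoid factors Ikaros and Aiolos, fell by 1.15 and 1.30 on the log2 scale. Of 11 tested plasma cell genes 2 fell, TNFRSF13B, the receptor TACI, by 1.84 and CD38 by 0.66, beside 9.71% of all genes that fell over both times. Called MHC class II genes numbered 2 without the DMSOP library, 2 without the DMSOV library and 4 without the 6 h vorinostat library, and B-cell identity genes 5 without the DMSOP library, 4 without the DMSOV library, 5 without the 6 h vorinostat library and 4 without the 6 h pracinostat library. The call was lost, by adjusted p, for HLA-DMA 0.0672 without the DMSOP library and 0.0637 without the DMSOV library, for POU2F2 0.0772 without the DMSOP library and 0.0781 without the DMSOV library, for CD38 0.0948 without the DMSOP library, 0.112 without the DMSOV library, 0.0511 without the 6 h vorinostat library and 0.0925 without the 6 h pracinostat library, for CR2 0.153 without the DMSOP library, 0.0981 without the DMSOV library, 0.0593 without the 6 h vorinostat library and 0.0765 without the 6 h pracinostat library.

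Of 25 genes usually transcribed in neurons 17 were in the table and 12 passed the filter, of which 8 rose and 0 fell, beside 10.2% of all genes that rose. A gene low in DMSO could pass through its drug libraries alone, so nothing is read from that share. MAP2, a dendritic microtubule protein, had 14.4 CPM with pracinostat and 9.67 CPM with vorinostat at 6 h, against 1.94 CPM with DMSO, and 22.2 and 21.1 CPM with the same drugs at 14 days, against 2.66 and 2.67 CPM in DMSOP and DMSOV, a log2 fold change of 2.88 (SE 0.28, adjusted p = 9.62e-04). MAPT, which encodes tau, had 7.19 to 7.69 CPM in the drug libraries, against 1.33 to 2.51 CPM in DMSO. Its groups did not overlap, and it was named after its values were seen. Of 12 tested immediate early genes 5 rose and 0 fell, beside the same 10.2% of all genes that rose. JUN, a subunit of AP-1, rose by 1.71 on the log2 scale. Of 22 genes of cholesterol and fatty acid synthesis 5 fell and 1 rose over both times. At 6 h 4 rose and 0 fell, and at 14 days 0 rose and 13 fell. Of all tested genes 9.71% fell over both times, 7.29% rose at 6 h and 9.58% fell at 14 days. The direct test of the change between the times called 3 of 22, all with a lower effect at 14 days, beside 0.489% of all genes. SCD, which puts a double bond into fatty acids, had 84.8 CPM with pracinostat and 83.7 CPM with vorinostat at 6 h, against 135 CPM with DMSO, and 54.9 and 11.1 CPM with the same drugs at 14 days, against 201 and 274 CPM in DMSOP and DMSOV, a log2 fold change of -2.05 (SE 0.56, adjusted p = 0.0297). FADS2, another desaturase, fell by 1.75 and the fatty acid synthase FASN by 1.29. Of 8 tested efflux genes 2 rose and 1 fell, beside 10.2% of all genes that rose and 9.71% that fell. ABCB1, the pump P-glycoprotein, had 15.1 CPM with pracinostat and 16.0 CPM with vorinostat at 6 h, against 3.59 CPM with DMSO, and 16.5 and 10.0 CPM with the same drugs at 14 days, against 4.13 and 4.55 CPM in DMSOP and DMSOV, and MVP, the major vault protein, had 11.1 to 34.1 CPM in the drug libraries, against 2.54 to 4.66 CPM in DMSO. Their log2 fold changes were 1.80 (SE 0.29, adjusted p = 0.00501) and 2.42 (SE 0.38, adjusted p = 0.00457). Called lipid genes numbered 1 without the DMSOP library, 1 without the DMSOV library, 14 without the 6 h DMSO library and 2 without the 14 day pracinostat library, and immediate early genes 0 without the DMSOV library, 3 without the 6 h DMSO library, 3 without the 6 h vorinostat library and 3 without the 6 h pracinostat library. Calls were lost, by adjusted p, for SCD 0.0625 without the DMSOP library, 0.0737 without the DMSOV library and 0.0746 without the 14 day pracinostat library, for FADS2 0.0510 without the DMSOP library, 0.0520 without the DMSOV library and 0.0644 without the 14 day pracinostat library, for JUN 0.0552 without the DMSOP library and 0.0650 without the DMSOV library, for FASN 0.0613 without the DMSOP library.

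At 6 h 1014 genes rose (7.29%) and 1122 fell (8.06%) with drug, 15.3% of 13918. This test had 2 drug libraries against 1 DMSO library, which was assumed to vary like the pairs of the same fit. MCAM, an adhesion molecule, had 53.03 CPM with pracinostat and 54.7 CPM with vorinostat at 6 h, against 1.94 CPM with DMSO, a log2 fold change of 4.78 (SE 0.44, adjusted p = 6.96e-04). PFKFB4, a regulator of glycolysis, had 14.3 CPM with pracinostat and 15.6 CPM with vorinostat at 6 h, against 0.598 CPM with DMSO. CTSO, a cysteine protease, had 2.31 CPM with pracinostat and 1.52 CPM with vorinostat at 6 h, against 19.1 CPM with DMSO, and TNFRSF17, the plasma cell receptor BCMA, had 1.84 CPM with pracinostat and 0.967 CPM with vorinostat at 6 h, against 13.3 CPM with DMSO. Both drug libraries were lower than DMSO for these 2 genes, with log2 fold changes of -3.32 and -3.24. RSPO1, a secreted enhancer of Wnt signalling, had 8.45 CPM with pracinostat and 10.8 CPM with vorinostat at 6 h, against 193 CPM with DMSO. Its 6 h DMSO value itself stood apart from DMSOP and DMSOV, which had 13.7 and 7.07 CPM, so its fall rests on 1 DMSO library. MYC, the transcription factor gene that many lymphomas activate, had 101 CPM with pracinostat and 81.0 CPM with vorinostat at 6 h, against 255 CPM with DMSO, a log2 fold change of -1.49 (SE 0.23, adjusted p = 0.00378). Without the 6 h vorinostat library, MYC had an adjusted p of 0.0855. Scaled by library totals, 925 genes rose and 511 fell, with the median of all genes at 0.14 in place of 0.03. The count was 67 without the 6 h vorinostat library, 499 without the 6 h pracinostat library, 1145 without DMSOP, 1214 without DMSOV, 5525 without 14 day pracinostat and 5503 without 14 day vorinostat. The adjusted p was also over 0.05 without the 6 h vorinostat library for CTSO (0.0510), TNFRSF17 (0.103) and RSPO1 (0.0510).

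At 14 days 1507 genes rose (10.8%) and 1333 fell (9.58%), 20.4% of 13918, and the vorinostat library moved further than the pracinostat library. SFRP5, an antagonist of Wnt ligands, had 71.6 CPM with pracinostat and 48.0 CPM with vorinostat at 14 days, against 2.40 and 1.57 CPM in DMSOP and DMSOV, a log2 fold change of 4.89 (SE 0.34, adjusted p = 7.48e-05). TEX41, a noncoding RNA, had 27.6 CPM with pracinostat and 95.6 CPM with vorinostat at 14 days, against 4.13 and 2.98 CPM in DMSOP and DMSOV. GSTM1, a glutathione transferase with close family copies, had 2.26 CPM with pracinostat and 0.693 CPM with vorinostat at 14 days, against 11.3 and 14.3 CPM in DMSOP and DMSOV. Its values were lower in both drug libraries, at a log2 fold change of -3.06 (SE 0.45, adjusted p = 0.00372). Among 10642 genes with a mean of at least 5 CPM over the 35 libraries, 651 were at least 2-fold up and 292 at least 2-fold down with pracinostat, and 1221 and 1397 with vorinostat, each against the mean of the DMSO pair. At 6 h the same counts were 1060 and 750 with pracinostat and 1159 and 1077 with vorinostat. With each drug set against the DMSO library of its own letter, which is only 1 way to read the letters in the sample titles, log2 changes over 10004 genes with a mean of at least 5 CPM in TOLEDO had a slope of 1.15 for vorinostat on pracinostat. The changes with vorinostat and with pracinostat had a correlation of 0.710 over these genes, so the slope is not the ratio of their sizes. Against the mean of the DMSO pair their SD over genes was 0.942 with vorinostat and 0.597 with pracinostat, while DMSOP minus DMSOV had an SD of 0.261. Mitochondrially encoded genes took a larger share of both drug libraries at 14 days than of DMSO, as given above, and its part in these counts was not tested. Of the 13 genes encoded there 3 rose at 14 days, beside 10.8% of all tested genes. The 14 day count was 86 without DMSOP and 139 without DMSOV, 1036 and 892 without the 6 h pracinostat and vorinostat libraries, and 6908 without 14 day pracinostat. The adjusted p of TEX41 was 0.0572 without the DMSOP library and 0.0582 without the DMSOV library.

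The change of the effect between the times was tested directly, as the effect at 14 days minus that at 6 h, and differed for 176 genes, 1.26% of those tested, 108 higher at 14 days (0.776%) and 68 lower (0.489%). MYC was among them. It had 337 CPM with pracinostat and 361 CPM with vorinostat at 14 days, against 268 and 258 CPM in DMSOP and DMSOV, above DMSO in values but not called (log2 fold change 0.41 (SE 0.20, adjusted p = 0.153)). With the fall at 6 h this gave a change of 1.90 (SE 0.31, adjusted p = 0.0237). RSPO1 had 9.51 CPM with pracinostat and 31.9 CPM with vorinostat at 14 days, against 13.7 and 7.07 CPM in DMSOP and DMSOV, and its change of 5.29 (SE 0.74, adjusted p = 0.0200) carries the high 6 h DMSO library. SFRP5 at 6 h had 0.922 CPM with pracinostat and 0.691 CPM with vorinostat at 6 h, against 1.64 CPM with DMSO, and its change was 5.90 (SE 0.79, adjusted p = 0.0124). IL24, a cytokine of the IL10 family, had 0.922 CPM with pracinostat and 0.967 CPM with vorinostat at 6 h, against 2.84 CPM with DMSO, and 15.7 and 42.9 CPM with the same drugs at 14 days, against 3.33 and 2.67 CPM in DMSOP and DMSOV. IGHA2, an IgA constant gene with the close copy IGHA1, had 1.38 CPM with pracinostat and 1.11 CPM with vorinostat at 6 h, against 3.59 CPM with DMSO, and 22.0 and 20.6 CPM with the same drugs at 14 days, against 2.00 and 2.51 CPM in DMSOP and DMSOV. In both, the drug effect was more positive at 14 days. TENT5C, a poly(A) polymerase of plasma cells, had 25.5 CPM with pracinostat and 29.6 CPM with vorinostat at 6 h, against 4.78 CPM with DMSO, and 1.06 and 0.693 CPM with the same drugs at 14 days, against 5.19 and 4.55 CPM in DMSOP and DMSOV. TIMP2, an inhibitor of matrix proteases, had 21.8 CPM with pracinostat and 17.8 CPM with vorinostat at 6 h, against 3.44 CPM with DMSO, and 4.23 and 1.73 CPM with the same drugs at 14 days, against 10.6 and 11.0 CPM in DMSOP and DMSOV. For TENT5C and TIMP2 the drug values were above DMSO at 6 h, and the change was -4.96 and -4.35 on the log2 scale. AK7, an adenylate kinase of cilia, and DRP2, a dystrophin-related protein, changed by -3.95 and -3.73. Without DMSOP, DMSOV or either 6 h drug library 0 genes were called, and without the 14 day pracinostat or vorinostat library 4285 or 2565 were.

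Pracinostat and vorinostat were compared at matched times in 1 pair of compounds, with time as block. 0 of 13918 genes were called by edgeR (0.00%), 560 had an unadjusted p under 0.05, and DESeq2 called 2. CDKN1A was lower with pracinostat than with vorinostat at both times, by 1.07 on the log2 scale (95% interval -1.72 to -0.41, adjusted p = 0.890, edgeR). For BCL6 the pracinostat minus vorinostat difference was -0.19 (-0.91 to 0.53). For S1PR2 it was -0.08 (-0.89 to 0.73) and for TUBA4A -0.11 (-0.68 to 0.46). MYC had 0.05 (-0.99 to 1.09) and BCL2 -0.04 (-0.57 to 0.49). The intervals of these 5 genes include 0 and leave room for differences of either sign, while that of CDKN1A lies below 0 before adjustment over all genes. A missed threshold does not show that the compounds act alike. The labels give no dose, so equal exposure was not known. Without the 6 h vorinostat library 145 genes were called.

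**Figure D3:**
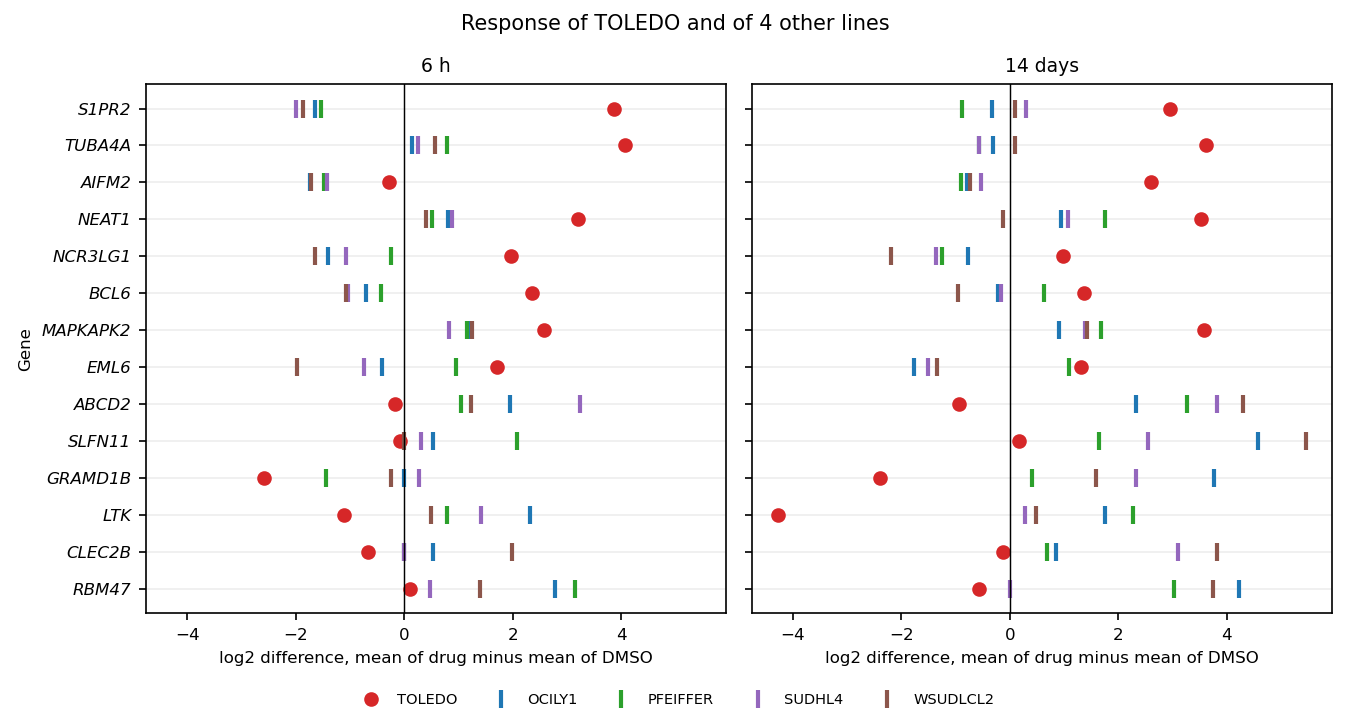
Mean log2 CPM of drug libraries minus that of DMSO libraries for TOLEDO (red points) and the other 4 lines (ticks), at 6 h (left) and 14 days (right), for genes called against the mean of the other lines. The upper 8 genes were called as more positive in TOLEDO and the lower 6 as more negative.

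Set against the mean response of OCILY1, PFEIFFER, SUDHL4 and WSUDLCL2, the TOLEDO response differed for 488 of 15324 genes over both times, 3.18%, 140 higher (0.914%) and 348 lower (2.27%). At 6 h 208 genes differed (1.36%), 95 higher (0.620%) and 113 lower (0.737%), and at 14 days 958 (6.25%), 285 higher (1.86%) and 673 lower (4.39%). Of the 488, 324 (2.11% of all genes) had a TOLEDO response beyond that of each other line on 1 side at both times, 125 above (0.816%) and 199 below (1.30%). Among all genes 13.0% had such a response, 5.85% above and 7.19% below. The sign was opposite to that of all 4 other lines for 7.06% of genes at 6 h, 6.89% at 14 days and 0.457% at both times. CPM values beside other lines were scaled over the 35 libraries and differ slightly from those above. S1PR2 had 11.1 to 18.5 CPM in TOLEDO drug libraries, against 0.462 to 2.14 CPM in TOLEDO DMSO, the lowest near the floor. In the other lines it had 42.8 to 319 CPM with drug, against 72.3 to 326 CPM in DMSO. It rose in TOLEDO while its mean 6 h response was negative in each other line, between -1.99 and -1.54 on the log2 scale, and the difference was 4.30 (SE 0.57, adjusted p = 3.74e-05). TUBA4A had 29.7 to 44.7 CPM in TOLEDO with drug, against 2.06 to 2.30 CPM in DMSO, and 88.1 to 267 CPM in the other lines with drug, against 119 to 247 CPM. The difference was 3.97 (SE 0.38, adjusted p = 2.92e-07). BCL6 had 14.1 to 37.1 CPM in TOLEDO with drug, against 5.91 to 6.78 CPM in DMSO, and 172 to 963 CPM in the other lines with drug, against 414 to 699.6 CPM. Its difference was 2.24 (SE 0.32, adjusted p = 7.46e-05), and even the highest TOLEDO drug value stayed below every library of the other lines.

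**Figure D4:**
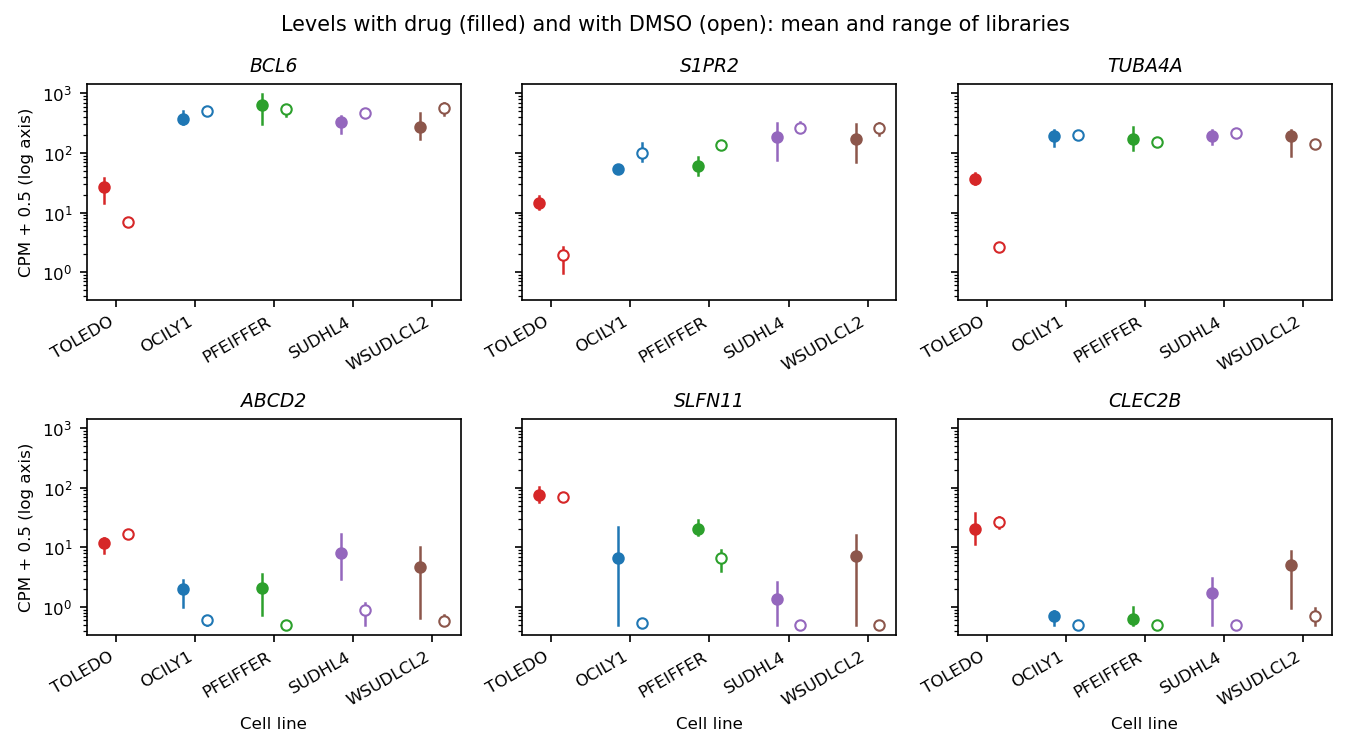
Levels of 6 genes in TOLEDO and the 4 other lines, on a log axis of CPM + 0.5, with the mean (point) and range (bar) of 4 drug libraries (filled) and 3 DMSO libraries (open). BCL6, S1PR2 and TUBA4A were lowest in TOLEDO, and ABCD2, SLFN11 and CLEC2B highest in TOLEDO, in DMSO.

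Other genes with a more positive response in TOLEDO were IGLV6-57, with a difference of 5.49 (SE 0.69, adjusted p = 1.73e-05), and AIFM2, a suppressor of ferroptosis, with 2.85 (SE 0.51, adjusted p = 0.00107). AIFM2 had 1.59 to 25.9 CPM in TOLEDO with drug, against 1.97 to 3.44 CPM in DMSO, and 6.01 to 19.9 CPM in the other lines with drug, against 14.0 to 43.2 CPM. NEAT1 differed by 2.84, NCR3LG1, a ligand of the natural killer receptor NKp30, by 2.73, EML6, a microtubule-associated protein, by 2.19 and MAPKAPK2 by 2.15 on the log2 scale. Among germinal centre genes 3 of 17 responded more positively, S1PR2, BCL6 and MYBL1, the last by 1.78 (SE 0.42, adjusted p = 0.0138). Of all genes 0.914% were called as more positive. Of 23 p53 targets BTG2 and MDM2, the negative regulator of p53, had differences of 1.99 and 1.54. Both p53 targets, and MYBL1, were named for their list counts after their values were seen. Of these, calls were lost, by adjusted p, for MYBL1 0.135 without the 6 h DMSO library and 0.0719 without the 14 day pracinostat library, for BTG2 0.132 without the DMSOP library, 0.141 without the DMSOV library and 0.159 without the 14 day vorinostat library, for MDM2 0.200 without the DMSOP library, 0.214 without the DMSOV library and 0.118 without the 14 day vorinostat library. With 1 other line left out, the adjusted p was 0.132 for BTG2 without OCILY1 and 0.0519 without WSUDLCL2, and for MDM2 it was 0.0691 without PFEIFFER, 0.0582 without SUDHL4 and 0.0744 without WSUDLCL2.

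The larger group responded less, or more negatively, in TOLEDO, and several of its genes were already on in untreated TOLEDO. ABCD2, a peroxisomal fatty acid transporter, had 7.66 to 14.0 CPM in TOLEDO with drug, against 14.9 to 18.4 CPM in DMSO, and 0.157 to 16.6 CPM in the other lines with drug, against 0 to 0.687 CPM. SLFN11, a factor that blocks stalled replication, had 58.0 to 104 CPM in TOLEDO with drug, against 65.5 to 74.0 CPM in DMSO, and 0 to 28.0 CPM in the other lines with drug, against 0 to 8.40 CPM. In both, TOLEDO had the highest DMSO level and no drug values wholly above it, while libraries of other lines with drug reached higher values than their DMSO. No fold is given because at least 1 line was at 0 counts in DMSO. GRAMD1B, LTK, CLEC2B and RBM47 were called in the same direction, likewise with a line at 0. With limma on the authors' deposited log2 CPM the adjusted p was 0.167 for SLFN11 and 0.0999 for CLEC2B. PRKCB, the protein kinase of B-cell receptor signalling, had 198 to 273 CPM in TOLEDO with drug, against 154 to 242 CPM in DMSO, and 25.7 to 447 CPM in the other lines with drug, against 5.22 to 41.4 CPM. Its difference was -3.01 (SE 0.45, adjusted p = 1.40e-04). DNMT3A, a de novo DNA methyltransferase, fell in TOLEDO by 0.76 and differed by -2.11 (SE 0.30, adjusted p = 7.46e-05). The call of its fall within TOLEDO was lost at an adjusted p of 0.0773 without the DMSOP library, 0.130 without the DMSOV library, 0.0588 without the 6 h vorinostat library and 0.0659 without the 6 h pracinostat library. Of 14 heat shock genes BAG3 and DNAJB1 responded more negatively, by -2.05 and -1.17, beside 2.27% of all genes. The median of the list at 6 h was -0.45 in TOLEDO, against -0.07 to 0.51 in the other lines. At 14 days it was -0.79 in TOLEDO, close to -0.74 in PFEIFFER, with the other lines at -0.74 to -0.04. Among 29 B-cell identity genes IKZF1 (-1.09) and PRKCB were lower and POU2F2 (1.55) higher. Of all genes 2.27% were called lower and 0.914% higher. PRKCB, DNMT3A, BAG3, DNAJB1, IKZF1 and POU2F2 were named for list counts after their values were seen. The call was lost, by adjusted p, for DNAJB1 0.0662 without the DMSOP library, 0.0659 without the 6 h DMSO library and 0.0565 without the 14 day vorinostat library, for IKZF1 0.0928 without the DMSOP library, 0.0569 without the DMSOV library, 0.211 without the 6 h DMSO library, 0.0998 without the 6 h vorinostat library, 0.0733 without the 6 h pracinostat library and 0.144 without the 14 day vorinostat library, for POU2F2 0.144 without the DMSOP library, 0.209 without the DMSOV library and 0.189 without the 14 day vorinostat library. Without OCILY1 it was 0.0786 for POU2F2 and 0.0523 for IKZF1, and without SUDHL4 0.0772 for IKZF1.

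Lists of cell division, recombination, ribosome biogenesis and MHC class II gave 0 called members of 25, 25, 22, 25 and 13 in the test against the other lines, where 3.18% of all genes were called, so counts of 0 lie near that share. At 14 days the median log2 response of G2/M genes was -1.85 in TOLEDO, against -3.29 to -1.22 in the other lines, and that of MHC class II was 1.04, against 0.74 to 1.76. At 6 h the G2/M median was -0.60 in TOLEDO, against -0.35 to 0.50 in the other 4 lines, and the neuronal median was 2.43, against 0.27 to 1.63. At 14 days the neuronal median was 0.98 in TOLEDO, against 0.54 to 1.56. These medians are descriptions with no test.

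The level before treatment went with the direction of the difference. To keep it apart from the DMSO libraries of the response itself, the untreated level at 6 h was read from the 14 day DMSO pair, and that at 14 days from the 6 h DMSO library. Of the 95 genes with a more positive TOLEDO response at 6 h, 73.7% had an untreated level below all 4 other lines, against 21.0% of all 15324 genes. Of the 113 with a more negative response, 71.7% lay above all 4, against 25.5%. At 14 days 46.7% of 285 more positive genes lay below, against 20.0%, and 47.7% of 673 more negative genes lay above, against 24.6%. The median TOLEDO level of the 95 genes minus the mean of the other lines was -0.61 with drug and -1.88 in DMSO on the log2 scale, and for the 113 genes it was 1.54 with drug and 2.67 in DMSO. The genes were chosen by their response, which fixes the direction from DMSO to drug level, so these shares and medians are a description.

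**Figure D5:**
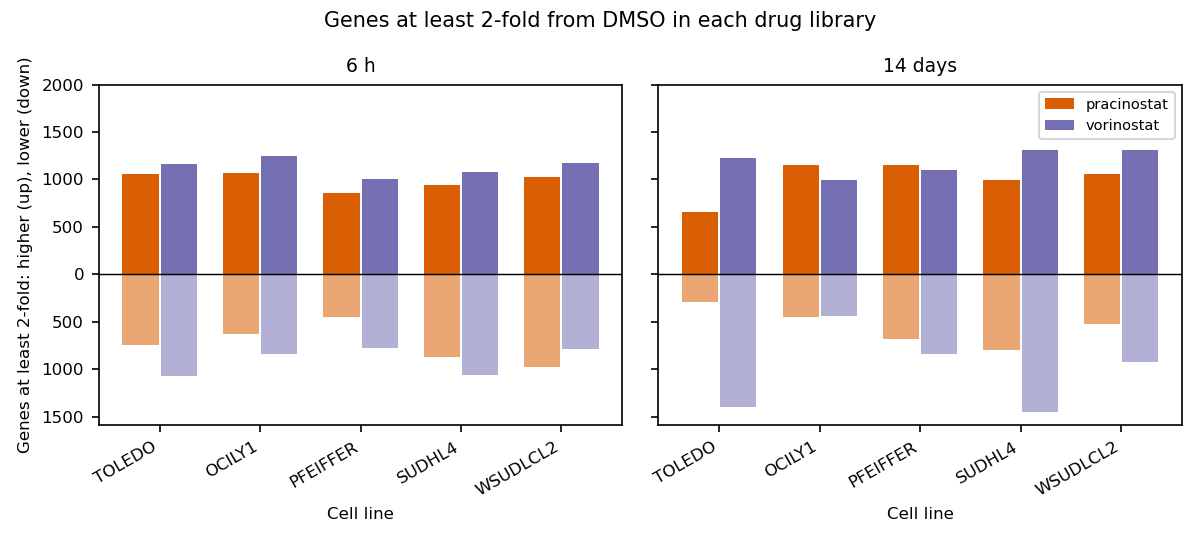
Number of genes at least 2-fold higher (upward bars) or lower (downward, paler bars) than the DMSO mean in each drug library of the 5 lines, of 10642 genes, at 6 h (left) and 14 days (right). The 14 day pracinostat library of TOLEDO had 651 higher and 292 lower.

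The size of the response set TOLEDO apart at 14 days with pracinostat. Its 651 genes at least 2-fold up and 292 at least 2-fold down were the fewest of the 5 lines, where the other lines had 996 to 1150 up and 452 to 796 down. With vorinostat at 14 days TOLEDO had 1221 up and 1397 down, against 997 to 1313 and 443 to 1448 in the other lines. At 6 h it had 1060 up and 750 down with pracinostat, against 851 to 1068 and 449 to 975, and 1159 up and 1077 down with vorinostat, against 1007 to 1243 and 776 to 1066. Each count rests on 1 drug library, and no test was made. The following measures pool the pracinostat and vorinostat libraries of each line, so they are not particular to pracinostat. Genes at least 2-fold up at 14 days in the mean of the 4 other lines, 955 for TOLEDO, had a median log2 response of 0.60 in TOLEDO, 74.0% of them positive. The same measure, each line against the mean of the other 4, was 1.07 to 1.28 with 86.5% to 90.9% positive in the other lines. Genes at least 2-fold down at 14 days in the mean of the other lines, 442 for TOLEDO, had a median of -1.24 in TOLEDO with 96.2% negative, against -2.31 to -0.85 with 94.9% to 99.1% negative in the other lines, so TOLEDO lay within their range. For the genes that were up at 6 h the median was 1.13 in TOLEDO, against 0.97 to 1.497. In the test against the mean of the other 4, TOLEDO had 488 calls over both times, against 142 to 426 when each other line took its place, and 208 at 6 h, against 28 to 173. At 14 days its 958 calls lay within the 535 to 992 of the other lines.

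The calls against other lines say that TOLEDO differs from the mean of these 4 lines, since the spread is that between libraries within lines. With the line as the replicate, 2 genes were called over both times, S1PR2 and TUBA4A, 6 at 6 h and 0 at 14 days. The count over both times was 319, 306 and 298 without DMSOP, DMSOV and 14 day vorinostat. At 6 h it was 62 and 99 without the vorinostat and pracinostat library of that time, and 101, 121, 128 and 387 without OCILY1, PFEIFFER, SUDHL4 and WSUDLCL2. At 14 days it was 548, 516, 582 and 1616 without DMSOP, DMSOV, 14 day vorinostat and 14 day pracinostat. Limma on the deposited log2 values gave 184 higher and 208 lower over both times, and 212 higher and 85 lower at 6 h.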

How the data were processed

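RNA was extracted with Trizol and libraries were made with a TruSeq RNA kit, per the labels' protocols. STAR, edgeR and build hg38 are named, without versions, in the submitters' processing notes. The deposited raw gene counts of the authors were used as such, and the authors' deposited normalized log2 CPM values only in an alternative. In R 4.3.3, edgeR 4.0.16 (TMM factors, minimum count 10, minimum total 15, robust quasi-likelihood fit) tested each comparison over all genes that passed the filter, with Benjamini-Hochberg adjustment, and genes were called at 0.05. Depth was 5870845 to 7536369 counts per TOLEDO library. CPM used TMM effective sizes, with a prior count of 2 on the log2 scale. Each SE was derived from the test, as the absolute log2 fold change divided by the square root of the F statistic. The intervals for pracinostat minus vorinostat were built from it. Coordinates are from GENCODE 29 on GRCh38. On simulated data, 200 changed genes were set among the 13918 of the both-times test, which recovered 53% of 2-fold and 99% of 4-fold changes. The test against other lines recovered 32% and 89% of 200 among 15324 genes. The changed genes were not drawn from the lowest levels, and each had 1 effect for both drugs and both times. Recovery at low levels, or of effects that differ between libraries, was not tested. Alternatives were library totals, no filter, DESeq2 1.42.0, limma 3.58.1, other sets of libraries or lines, and the counts of list members through them, the last chosen after seeing the data. The gene lists and comparisons were chosen with earlier results of these data known. Named genes were the 12 largest called in each direction (10 against other lines, 5 in other comparisons) whose log2 CPM averaged 2 or more, up to 2 per list and direction, and CDKN1A, MYC, BCL2, BCL6, HDAC1, HDAC2, HDAC3 and HDAC11, with exceptions named after their values were seen, among them MAPT, MEF2C, MYBL1, CR2, CDKN2B, BTG2, FASN and DNMT3A. The largest of the both-times comparison also had 1 sign in all 4 drug libraries. Those against other lines had a response beyond each other line at both times. SUDHL6 was left out, since it has no vorinostat and no 14 day libraries here. Some genes are not reported here.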

Additional observations from a re-analysis of the deposited data

Results flagged for a closer look

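The drug effect differed between 14 days and 6 h, by the test of that difference, for 176 genes. The differences were 5.90 for SFRP5, 5.31 for TEX41, 5.29 for RSPO1, 4.84 for IL24, 4.76 for IGHA2 and 1.90 for MYC on the log2 scale, and -4.96 for TENT5C, -4.35 for TIMP2, -3.95 for AK7 and -3.73 for DRP2.

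The response of TOLEDO differed from the mean of the 4 other lines for 488 genes over both times, 208 at 6 h and 958 at 14 days. Over both times the log2 difference was 5.49 for IGLV6-57, 4.30 for S1PR2, 3.97 for TUBA4A, 2.85 for AIFM2, 2.84 for NEAT1, 2.73 for NCR3LG1, 2.24 for BCL6, 2.19 for EML6 and 2.15 for MAPKAPK2. It was 1.99 for BTG2, 1.78 for MYBL1, 1.55 for POU2F2 and 1.54 for MDM2, and -3.01 for PRKCB, -2.11 for DNMT3A, -2.05 for BAG3, -1.17 for DNAJB1 and -1.09 for IKZF1. At 6 h it was 6.29 for S1PR2, whose TOLEDO DMSO level lay near the floor, 3.81 for TUBA4A, 3.22 for BCL6 and 3.16 for NCR3LG1. At 14 days it was 6.55 for IGLV6-57, 4.08 for TUBA4A, 3.47 for AIFM2, 3.32 for S1PR2, 2.95 for NEAT1 and 2.12 for EML6. The adjusted p at 14 days was 0.112 for NEAT1 without the 14 day vorinostat library, and 0.0810 and 0.0624 for EML6 without DMSOP and DMSOV. At 6 h it was 0.0595 and 0.0835 for NCR3LG1 without the 6 h vorinostat and pracinostat libraries.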

How the results depend on the processing

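Left out 1 library at a time, the count of called genes ranged from 1016 to 2962 over both times, 67 to 5525 at 6 h, 86 to 6908 at 14 days, 0 to 4285 for the change between times, 0 to 145 for pracinostat against vorinostat, and against the other lines 298 to 506 over both times, 62 to 274 at 6 h and 516 to 1616 at 14 days. Over both times 1400 genes were called with pracinostat alone, 1002 with vorinostat alone and 1568 with a 2-fold limit. With the libraries of that time alone 5277 were called at 6 h and 949 at 14 days. At 14 days library totals gave 1794 and a 2-fold limit 1804. The pairing of each 14 day drug library with the DMSO library of its letter, as a replicate block, gave 2342 calls, 1443 higher and 899 lower, and with 1 pair per drug the pairing itself could not be checked. The change between times had 36 calls with library totals, 436 with no filter, 440 by DESeq2 and 695 with the spread over 5 lines. DESeq2 called 2 genes between the drugs, and against the other lines 749 over both times and 338 at 6 h. With the line as replicate the calls were 2, 6 and 0 (713 at an unadjusted p under 0.05 at 14 days, limma), and at 6 h 101, 121, 128 and 387 without OCILY1, PFEIFFER, SUDHL4 and WSUDLCL2. The cause of these shifts was not tested.

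Of 1975 values of named genes under alternatives, 1753 kept direction and call, 205 lost the call, 2 gained it and 15 changed sign, none of them called. With 1 library left out, the both-times log2 change ranged from -0.63 to 0.43 for MYC (highest without 6 h DMSO), from -0.14 to 0.16 for BCL2 (0.03 without 6 h pracinostat) and from -0.17 to 0.25 for HDAC3 (lowest without 6 h DMSO). Pracinostat minus vorinostat ranged from -0.63 to 0.12 for BCL6, -0.41 to 0.19 for S1PR2 (0.043 without 6 h vorinostat), -0.27 to 0.0703 for TUBA4A, -0.52 to 0.92 for MYC (-0.47 without 14 day pracinostat) and -0.25 to 0.11 for BCL2 (0.052 without 14 day vorinostat). With library totals it was 0.049 for S1PR2, 0.0125 for TUBA4A and 0.0889 for BCL2.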
